A study of Caenorhabditis elegans with 12 samples.

Results

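Lysozymes and antimicrobial peptides are the secreted and lysosomal effectors with which Caenorhabditis elegans digests bacteria and limits infection. Lysozymes cut the peptidoglycan of bacterial cell walls, saposin-like proteins include pore-forming caenopores, and the small abf, cnc and fip peptides are produced by the pharynx, the epidermis and other barrier tissues. Many of these genes are transcribed in the intestine, the organ in which the worm's bacterial food is broken down, and the glycine-rich caenacins (cnc) are known as epidermal genes under p38 and TGF-beta control. The genes described here are those whose platform symbol is a single name of the form lys, ilys, spp, abf, cnc, fip, fipr or thn followed by a number. There were 64 such genes among 17138 genes with a probe set of their own. Each was represented by the probe set with the highest mean over the 12 arrays. The rule used no difference between groups.

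The samples were whole young adult worms of 3 genotypes with 4 arrays each: wild type strain N2, strain BA1 with the temperature-sensitive allele fer-1(hc1), and strain BA24 with the temperature-sensitive allele fer-1(hc24). fer-1 encodes a ferlin needed for membrane fusion in maturing sperm. All animals had been raised at 25 °C from synchronised L1 larvae, and 1000 adults per sample had been collected on a COPAS sorter whose gate kept out L4 larvae and earlier stages. Each allele was represented by a single strain, and 4 of 6 preparations per genotype had been kept for their correlation, so that the spread between arrays understates the spread between preparations. Values are log2 expression levels from GCRMA (means ± SD, n = 4 arrays). A probe set was tested where at least 4 of the 12 arrays read at least log2 4, and it is said to have risen or fallen where the Benjamini-Hochberg adjusted p of the limma fit over 11833 probe sets was under 0.05. All adjusted p-values are two-sided.

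The probe set of fer-1 itself lay between 1.46 and 1.48 in all 12 arrays, which is background, so it could not check the genotype labels. Array medians ran from 4.53 to 4.66 in wild type, from 4.34 to 4.36 in hc1 and from 4.33 to 4.37 in hc24. On the log2 scale the tested probe sets as a whole had a median difference from wild type of 0.14 in hc1, with 0.12 found for hc24. The array of hc1 replicate 2 stood apart in its summed level of sperm markers (8.78, against 6.77 to 6.94 in the other hc1 arrays). Without it the number of changed genes among the 64 in hc1 against wild type was the same, 18, beside 66.4% of all tested probe sets.

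Of the 64 genes, 30 passed the filter on low values and 34 did not. In hc1 against wild type, 17 of the 30 fell and 1 rose, while of all tested probe sets 69.2% changed, 25.9% lower and 43.3% higher. In hc24 against wild type, 22 fell and 2 rose, beside 59.4% of all tested probe sets, 21.7% lower and 37.7% higher. The median log2 difference of the 30 genes was -0.48 in hc1 and -0.45 in hc24. Most falls were small: 7 genes fell at least 2-fold in hc1 (background 10.8%) and 9 in hc24 (background 9.52%), where 17.2% and 14.8% of all tested probe sets changed by that much in either direction. The fungus-induced gene fip-2 was the gene that rose at least 2-fold in hc1 (background 6.38%), and fip-2 and fipr-2 were those in hc24 (background 5.27%). The falls in both mutants, also those of at least 2-fold, include spp-13, which passed the filter through its wild type arrays. Both mutants were compared with the same 4 wild type arrays. In a whole-worm sample, fewer cells of a type and less RNA per cell cannot be told apart. A difference in developmental stage between the genotypes cannot be separated from either, and was not tested.

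**Figure D1:**
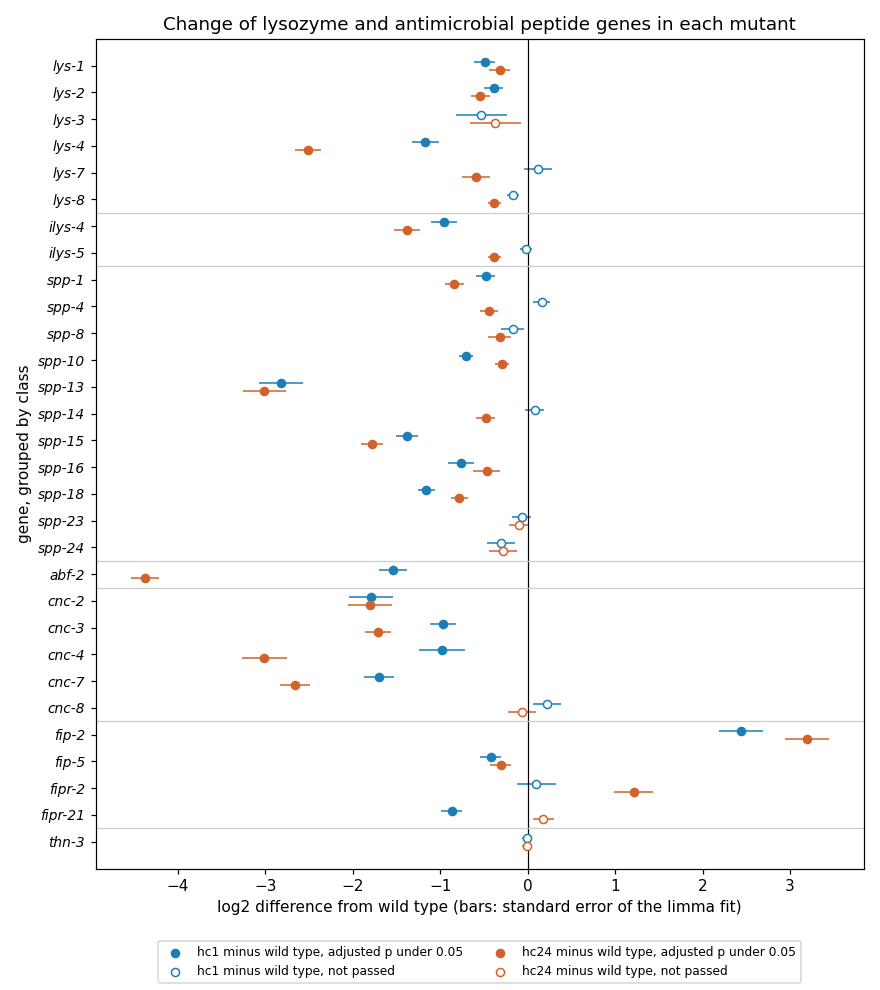
Log2 difference from wild type of each of the 30 tested genes (rows, grouped by class) in hc1 (blue) and hc24 (orange), with the standard error of the limma fit. Filled points passed an adjusted p of 0.05. Most points lie left of 0, abf-2 in hc24 at -4.38 is the farthest, and fip-2 stands right of 0 in both mutants.

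Another scaling of the arrays moved the balance of these calls. With each array centred on its own median, 13 genes fell and 7 rose in hc1, and 12 fell and 4 rose in hc24. Under this scaling 82.3% of all tested probe sets changed in hc1 and 80.8% in hc24. With cyclic loess, 22 fell and 1 rose in hc1, and 22 fell and 2 rose in hc24, beside 61.2% and 50.6% of all tested probe sets that changed. Against the median of all tested probe sets under the same scaling, the median of the 30 genes lay at -0.62, -0.62 and -0.61 in hc1 with the deposited values, median centring and cyclic loess. In hc24 the corresponding distances were -0.58, -0.58 and -0.60. Median centring moves all probe sets of an array by the same amount. Apart from which probe sets pass the filter, its match with the deposited values was therefore fixed in advance and is not read as support.

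**Figure D2:**
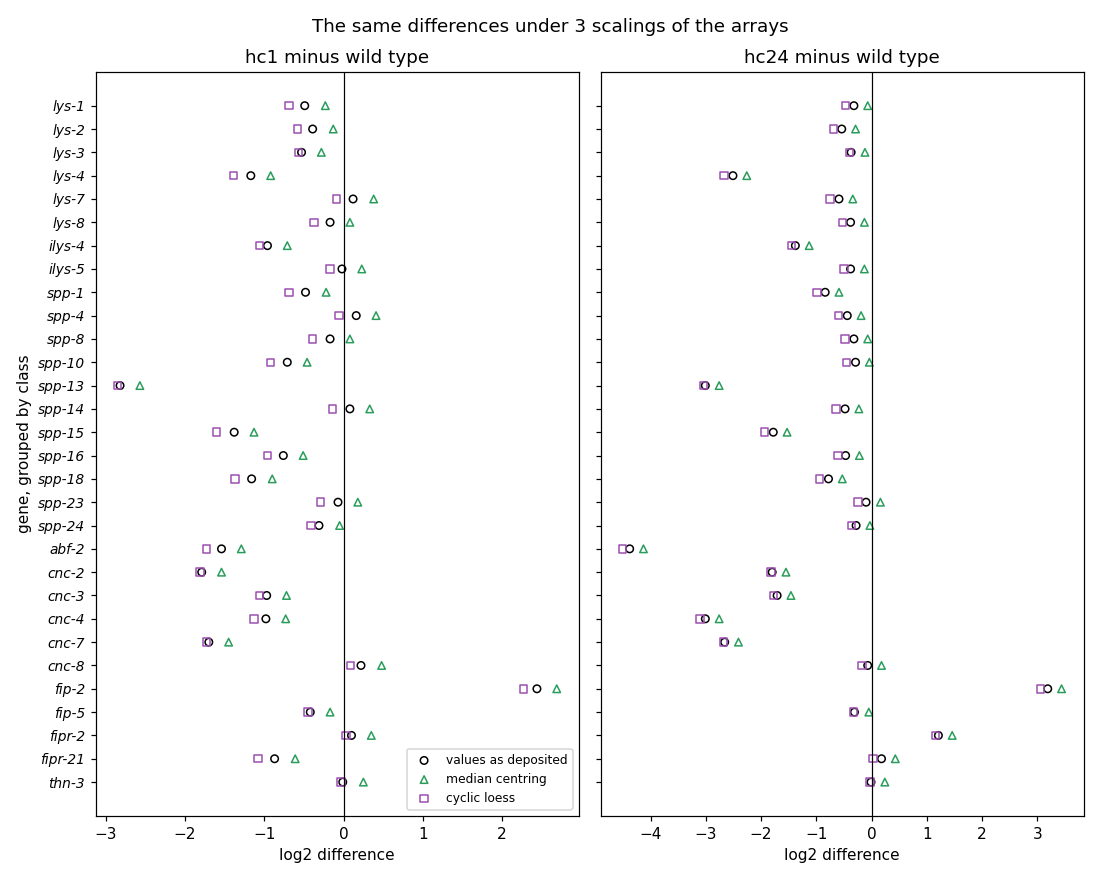
Log2 difference from wild type of the 30 tested genes under 3 scalings: the deposited values (circles), median centring (triangles) and cyclic loess (squares), with hc1 on the left and hc24 on the right. For each gene the median-centred point lies right of the other points. abf-2, lys-4, spp-13, spp-15, cnc-2, cnc-3, cnc-4 and cnc-7 stay left of 0, and fip-2 stays right of 0, under all 3.

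The lys genes encode lysozymes related to those of protists. Of 10 on the array, 6 were tested. In hc1 3 fell and 0 rose, and in hc24 5 fell and 0 rose. Of all tested probe sets 25.9% fell in hc1 and 21.7% in hc24. lys-4 (chromosome IV) had the largest fall of the class in both mutants. Its wild type arrays read 12.81, 12.20, 12.61 and 12.56, its hc1 arrays 11.40, 11.50, 11.62 and, lowest, 11, and its hc24 arrays 10.13, 9.92, 9.88 and 10.21. The 3 groups did not overlap, with wild type highest and hc24 lowest. lys-4 fell 2.25-fold in hc1 (log2 difference -1.17, SE 0.15, adjusted p = 2.21e-05) and 5.70-fold in hc24 (-2.51, SE 0.15, adjusted p = 2.43e-08), and it was 2.54-fold higher in hc1 than in hc24 (adjusted p = 2.99e-05).

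lys-1 and lys-2 are next to each other on chromosome V. lys-1, known from reporter strains as an intestinal lysozyme, read 13.68 ± 0.18 in wild type, 13.19 ± 0.03 in the hc1 arrays and 13.36 ± 0.23 in those of hc24. It fell 1.40-fold in hc1 (adjusted p = 0.00243) and 1.25-fold in hc24 (adjusted p = 0.0309), where the arrays spread from below those of hc1 into the wild type range. lys-2 read 14.10 ± 0.20, 13.71 ± 0.09 and 13.55 ± 0.17 in the same order and fell 1.31-fold in hc1 (adjusted p = 0.00727) and 1.46-fold in hc24 (adjusted p = 0.00103). Neither gene differed between the alleles at the threshold (adjusted p = 0.299 and adjusted p = 0.302). lys-3, the next gene after lys-2, lay at the edge of detection, with 4 wild type arrays, 1 hc1 array and 3 hc24 arrays at log2 4 or more, and passed no test.

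lys-7 and lys-8 were lower in hc24 and did not pass in hc1. lys-7, a lysozyme known for its part in resistance to bacterial infection and as a target of DAF-16, read 13.25, 12.59, 13.02 and 13.27 in wild type, 13.13, 12.83, 13.30 and 13.37 in hc1 and 12.62, 12.62, 12.24 and 12.29 in hc24. The hc1 arrays lay among and just above those of wild type, and the hc24 arrays lay below all of hc1 and overlapped with the lowest wild type array. It fell 1.51-fold in hc24 against wild type (adjusted p = 0.00789) and was 1.64-fold higher in hc1 than in hc24 (adjusted p = 0.00565). lys-8 read 13.71 ± 0.13 for wild type, 13.54 ± 0.09 for hc1 and 13.33 ± 0.03 for hc24, a 1.30-fold fall in hc24 (adjusted p = 0.000859), with an adjusted p of 0.0595 in hc1. With median centring the falls of lys-1 and lys-2 in hc1 and those of lys-1, lys-7 and lys-8 in hc24 lost their calls, and lys-7 passed as higher in hc1.

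lys-5, lys-6, lys-9 and lys-10 were not tested. lys-5 and lys-6 follow lys-4 on chromosome IV with no protein-coding gene between them. lys-6 was the untested gene nearest to the filter, with 2 wild type arrays at log2 4 or more (4.05, 3.61, 3.91 and 4.81), whereas its hc1 and hc24 arrays read 3.13 to 3.21 and 3.14 to 3.51.

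The ilys genes encode lysozymes of the invertebrate type. Of 6 on the array, ilys-4 and ilys-5 were tested. ilys-4 (chromosome IV) read 7.84, 7.69, 8.0 and 7.56 in wild type, 6.65, 6.93, 6.80 and 6.87 in hc1, and 6.28, 5.98, 6.49 and 6.82 in hc24. Every mutant array was below every wild type array, and the mutants overlapped. The fall was 1.95-fold in hc1 (adjusted p = 0.000141) and 2.61-fold in hc24 (adjusted p = 9.15e-06), with an adjusted p of 0.056 between the alleles. ilys-5 (chromosome X) was close to the top of the scale, at 16.02 ± 0.09 in wild type and 15.63 ± 0.04 in hc24, and its hc1 arrays ran from 15.90 to 16.10, within and just above the wild type range. It fell 1.30-fold in hc24 (adjusted p = 0.000325) and gave an adjusted p of 0.795 in hc1. Its other 2 probe sets also fell in hc24 and did not pass in hc1. With median centring the hc24 call of ilys-5 was lost and its hc1 difference turned to 0.23 (adjusted p = 0.00498).

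ilys-1, ilys-2 and ilys-3 are neighbours on chromosome IV and were below the filter in every array, as was ilys-6. ilys-3, known as a lysozyme of the pharynx and intestine, read 3.17 ± 0.26 for wild type, 2.75 ± 0.07 for hc1 and 2.36 ± 0.21 for hc24. ilys-2 read 3.60, 3.12, 2.35 and 3.70 in wild type and 2.18 to 2.22 in the 8 mutant arrays. These readings lie under the floor used for testing and carry no call.

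The spp genes encode saposin-like proteins, a family that holds membrane-permeabilising caenopores of the intestine. Of 18 genes, 11 were tested, of which 6 fell in hc1 and 9 in hc24, and 0 rose in either. The share of all tested probe sets that fell was 25.9% in hc1 and 21.7% in hc24. spp-13 (chromosome X) had the largest difference. It read 6.79, 5.64, 6.71 and 7.20 in wild type, 3.71, 3.72, 3.60 and 4.03 in hc1, and 3.59, 3.54, 3.61 and 3.55 in hc24. It was detected in wild type and lay near or under the floor in both mutants. It passed the filter through its wild type arrays, and a gene that passes in this way had to differ. With the mutants held at log2 4 it was at least 6.0-fold lower in hc1 and at least 6.0-fold lower in hc24. Its adjusted p-values are not read as support, although spp-13 is among the falls counted in both mutants.

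spp-15 (chromosome I) and spp-18 (chromosome IV) were well above background throughout. spp-15 read 11.53, 11.05, 11.54 and 11.17 in wild type, 9.99, 9.85, 10.09 and 9.82 in hc1, and 9.69, 9.70, 9.43 and 9.33 in hc24. The groups did not overlap. It fell 2.61-fold in hc1 (adjusted p = 1.37e-06) and 3.44-fold in hc24 (adjusted p = 1.41e-07). spp-18 read 13.57, 13.03, 13.31 and 13.41 in wild type, 12.18, 12.06, 12.28 and 12.16 in hc1, and 12.61, 12.60, 12.44 and 12.56 in hc24. Here hc1 was the lowest group: the fall was 2.23-fold in hc1 (adjusted p = 9.03e-07) and 1.72-fold in hc24 (adjusted p = 3.53e-05), and hc1 was 1.30-fold below hc24 (adjusted p = 0.0138).

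spp-10 and spp-16 shared this order, with hc1 lowest on average. spp-10 read 13.40 ± 0.16 in wild type, 12.69 ± 0.10 in the hc1 arrays and 13.11 ± 0.04 in those of hc24, a fall of 1.64-fold in hc1 (adjusted p = 8.17e-06) and 1.23-fold in hc24 (adjusted p = 0.00779), and hc1 was 1.34-fold below hc24 (adjusted p = 0.0018). All 3 of its probe sets fell in both mutants. spp-16 fell 1.70-fold in hc1 (adjusted p = 0.000646) and 1.38-fold in hc24 (adjusted p = 0.0169), without a difference between the alleles at the threshold (adjusted p = 0.157).

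In the rest of the saposin-like class hc24 was on average the lower mutant, apart from spp-24, at 7.20 ± 0.23 in hc1 and 7.23 ± 0.15 in hc24. spp-1, a pore-forming caenopore, read 13.29 ± 0.15 for wild type, 12.81 ± 0.21 for hc1 and 12.45 ± 0.10 for hc24. It fell 1.39-fold in hc1 (adjusted p = 0.00162) and 1.79-fold in hc24 (adjusted p = 2.82e-05). Its other probe set was under the floor, at means of 3.35, 3.38 and 3.36 in the same order, and was not tested. spp-4 and spp-14 did not pass in hc1 (adjusted p = 0.162 and adjusted p = 0.56), and fell in hc24 by 1.36-fold (adjusted p = 0.00167) and 1.39-fold (adjusted p = 0.00295). Both were higher in hc1 than in hc24, by 1.51-fold (adjusted p = 0.00047) and 1.47-fold (adjusted p = 0.00257). spp-8 fell 1.25-fold in hc24 (adjusted p = 0.0445), a call that its other probe set did not pass. spp-23 and spp-24 passed in no comparison. Median centring removed the hc1 call of spp-1 and the hc24 calls of spp-4, spp-8, spp-10, spp-14 and spp-16, and gave spp-4 and spp-14 a call as higher in hc1.

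The abf genes encode antibacterial factors with the cysteine pattern of nematode defensin-like peptides. abf-2, known from the pharynx, was the only one of 5 to be tested, and in hc24 it had the largest fall of all 30 genes. Its wild type arrays read 11.40, 10.88, 11.26 and 10.77, its hc1 arrays 9.37, 9.53, 9.31 and 9.93, and its hc24 arrays 6.88, 6.59, 6.69 and 6.64. Wild type, hc1 and hc24 formed 3 separate levels. abf-2 fell 2.91-fold in hc1 (log2 difference -1.54, SE 0.16, adjusted p = 3.62e-06) and 20.8-fold in hc24 (-4.38, SE 0.16, adjusted p = 2.53e-10). hc1 was 7.14-fold above hc24 (adjusted p = 1.13e-07). abf-1, its direct neighbour on chromosome I, lay at 2.33 to 2.35 in group means and was not tested, as were abf-3, abf-4 and abf-5.

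The cnc genes encode caenacins, small glycine-rich peptides induced in the epidermis by fungal infection and wounding. Of 8 genes 5 were tested, and 4 of these fell in both mutants, with cnc-8 the exception. Among all tested probe sets 25.9% fell in hc1 and 21.7% in hc24. cnc-4 read 9.94, 9.67, 9.34 and 8.78 in wild type, 8.53, 8.17, 8.60 and 8.49 in hc1, and 7.07, 6.52, 6.07 and 6.03 in hc24. Its groups did not overlap, although the lowest wild type array came within reach of hc1. It fell 1.98-fold in hc1 (adjusted p = 0.00461) and 8.06-fold in hc24 (adjusted p = 8.11e-07), and was 4.07-fold higher in hc1 than in hc24 (adjusted p = 8.48e-05).

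cnc-7 had the same order of groups. It read 7.25, 7.31, 6.95 and 6.33 in wild type, 5.19, 5.17, 5.18 and 5.49 in hc1, and 4.21, 4.29, 4.36 and 4.33 in hc24, a fall of 3.26-fold in hc1 (adjusted p = 3.51e-06) and 6.33-fold in hc24 (adjusted p = 6.3e-08). Its other probe set also fell in both mutants, by 2.00 on the log2 scale in hc1, while its hc24 mean of 3.32 was under the floor. cnc-3 read 7.77 ± 0.28 in wild type, 6.79 ± 0.26 in the hc1 arrays and 6.06 ± 0.17 in those of hc24, and fell 1.97-fold (adjusted p = 0.000129) and 3.28-fold (adjusted p = 1.35e-06). cnc-7 and cnc-3 were 1.95-fold (adjusted p = 0.00124) and 1.67-fold (adjusted p = 0.00324) higher in hc1 than in hc24.

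cnc-2, a caenacin known to depend on TGF-beta signalling, showed no such step between the alleles. It read 6.79, 6.93, 5.68 and 5.64 in wild type, 4.65, 4.39, 4.42 and 4.41 in hc1, and 4.42, 4.56, 4.46 and 4.41 in hc24. The mutant arrays lay close together just above the floor, and the wild type arrays split into a higher and a lower pair. The fall was 3.46-fold in hc1 (adjusted p = 5.32e-05) and 3.48-fold in hc24 (adjusted p = 7.08e-05), with a difference between the alleles of 0.01 (SE 0.25, adjusted p = 0.987). cnc-1, cnc-5, cnc-4, cnc-3 and cnc-2 follow each other on chromosome V with no other protein-coding gene between them, and cnc-1 and cnc-5 were below the filter in every array. cnc-8 lies on chromosome X beside fipr-21. It read 7.85 ± 0.37 for wild type, 8.07 ± 0.18 for hc1 and 7.78 ± 0.17 for hc24 and passed in neither mutant (adjusted p = 0.243 and adjusted p = 0.725), although median centring gave it a call as higher in hc1. The 4 falling caenacins kept their calls under median centring and cyclic loess.

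**Figure D3:**
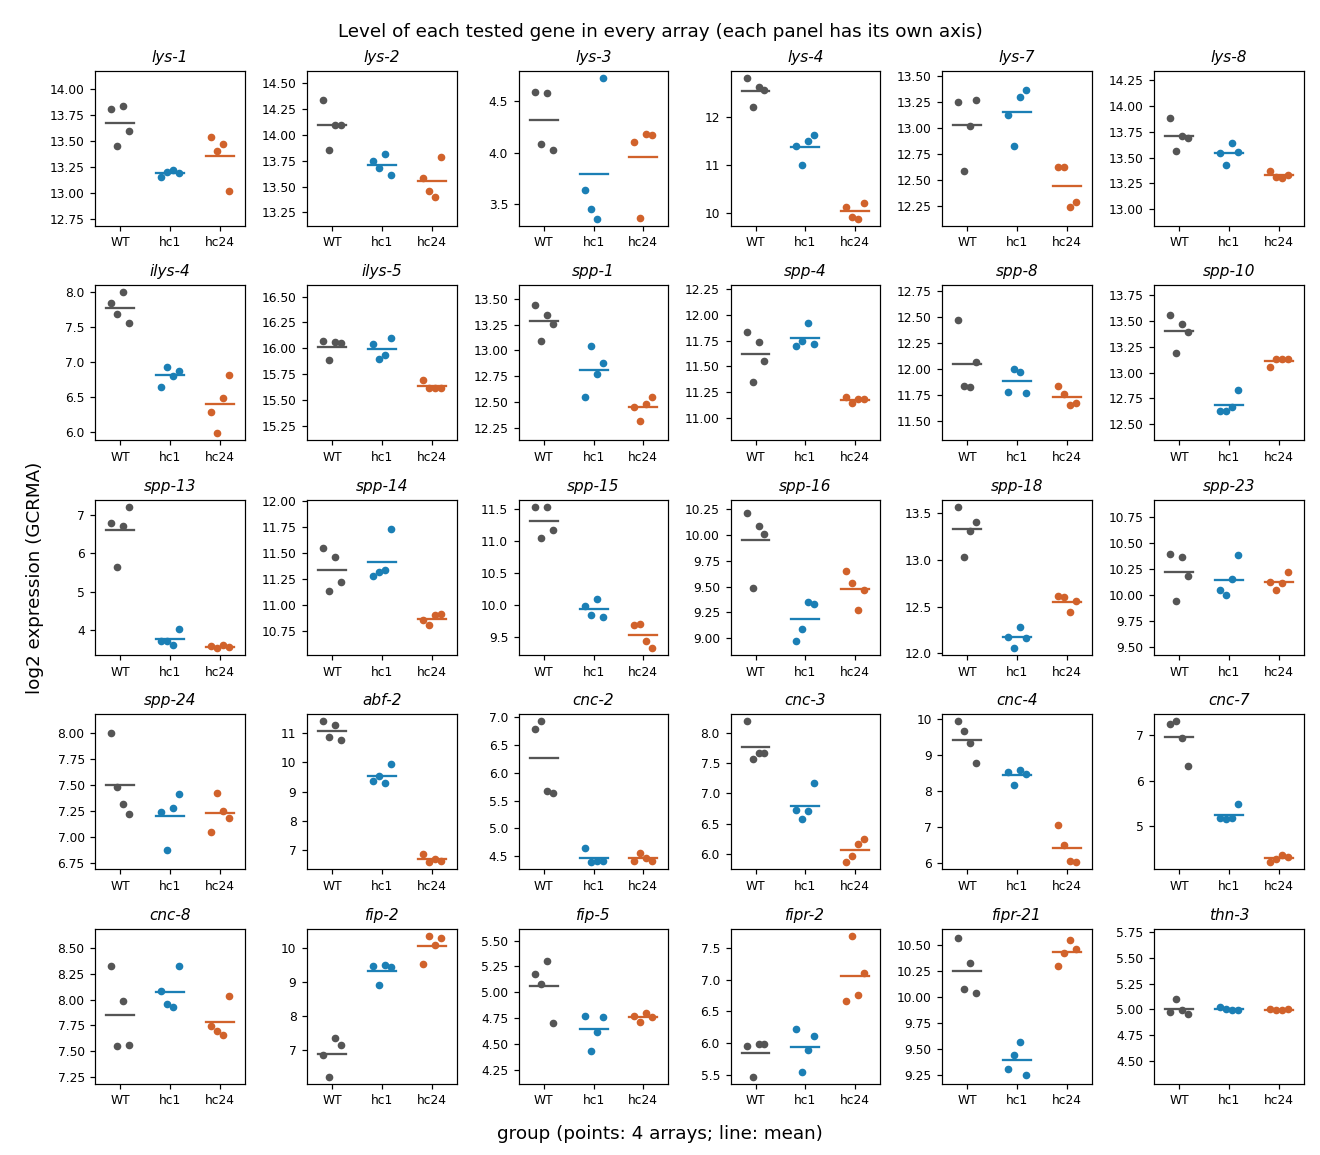
Log2 expression of the 30 tested genes, with 1 panel per gene, 4 arrays per group as points and the group mean as a line. Each panel has its own axis, which spans at least 1.5 log2 units. abf-2, lys-4, cnc-4 and cnc-7 step down from wild type through hc1 to hc24, spp-13 and cnc-2 are low in both mutants, and fip-2 steps up.

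The fip and fipr genes are named for induction by fungal infection and for relation to the fip genes. Of 13 on the array, 4 were tested, and they moved in different directions. fip-2 (chromosome V) rose in both mutants. It read 6.84, 6.21, 7.36 and 7.16 in wild type, 9.49, 8.91, 9.51 and 9.44 in hc1, and 9.55, 10.37, 10.11 and 10.30 in hc24. The hc1 arrays were above all wild type arrays and the hc24 arrays above all hc1 arrays. The rise was 5.43-fold in hc1 (log2 difference 2.44, SE 0.25, adjusted p = 3.07e-06) and 9.11-fold in hc24 (3.19, SE 0.25, adjusted p = 3e-07). Its other probe set rose by 3.03 and 3.58 on the log2 scale. Both sets carry the suffix for probes that may bind other sequences, so that they share this limit. hc1 was 1.68-fold below hc24 (adjusted p = 0.037), and the other probe set did not pass this comparison (adjusted p = 0.0782).

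fipr-2 (chromosome V) rose in hc24 and did not pass in hc1. It read 5.95, 5.47, 5.99 and 5.98 in wild type, 6.22, 5.54, 5.89 and 6.11 in hc1, and 6.67, 7.69, 6.75 and 7.10 in hc24. Wild type and hc1 overlapped, and hc24 lay above both. It rose 2.31-fold in hc24 (adjusted p = 0.000503), gave an adjusted p of 0.712 in hc1, and was 2.16-fold lower in hc1 than in hc24 (adjusted p = 0.00214).

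fipr-21 (chromosome X) was low in hc1. It read 10.57, 10.08, 10.33 and 10.04 in wild type, 9.30, 9.44, 9.56 and 9.25 in hc1, and 10.30, 10.43, 10.55 and 10.46 in hc24. The wild type and hc24 arrays overlapped, and all hc1 arrays lay below both. It fell 1.82-fold in hc1 (adjusted p = 3.44e-05), gave an adjusted p of 0.195 in hc24, and was 2.07-fold lower in hc1 than in hc24 (adjusted p = 2.99e-05). fip-5, its neighbour on chromosome X, read 5.06 ± 0.26 in wild type, 4.65 ± 0.16 in the hc1 arrays and 4.76 ± 0.04 in those of hc24. It fell 1.34-fold in hc1 (adjusted p = 0.00751) and 1.24-fold in hc24 (adjusted p = 0.0421), with overlapping arrays, and both calls were lost with median centring. The 9 other genes of the class were below the filter in every array.

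The thn genes encode proteins related to plant thaumatins. Of 4 on the array only thn-3 was tested, at 5.01 ± 0.07 for wild type, 5.00 ± 0.01 for hc1 and 4.99 ± 0.01 for hc24 (adjusted p = 0.937 and adjusted p = 0.857). With median centring its differences became 0.25 in hc1 (adjusted p = 0.00372) and 0.24 in hc24 (adjusted p = 0.00479). A probe set shared by thn-1 and thn-2 lies outside the rule for single genes, and was chosen after its values were seen. It read 13.54, 13.36, 13.47 and 13.41 in wild type, 12.25, 12.44, 12.30 and 12.66 in hc1, and 11.14, 10.81, 10.76 and 10.99 in hc24, a fall of 2.04-fold (adjusted p = 3.01e-06) and 5.74-fold (adjusted p = 7.26e-10). The groups did not overlap. The single-gene probe set of thn-1 read 3.05 in wild type on average and was not tested.

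Another 14 probe sets carried a gene of these classes together with another gene. They were left out of the counts, and 4 of them were tested. The probe set of thn-1 and thn-2 is 1 of these. The probe set of spp-2 and spp-3 fell from 13.51 ± 0.24 to 12.70 ± 0.32 in hc1 (adjusted p = 0.00152) and to 12.56 ± 0.28 in hc24 (adjusted p = 0.000661). That of spp-5, a pore-forming caenopore, and T08A9.13 read 14.76 ± 0.13 in wild type, 14.71 ± 0.04 in the hc1 arrays and 14.49 ± 0.05 in those of hc24, and fell in hc24 (adjusted p = 0.00512). That of cnc-11 and R09B5.11 read 4.85 ± 0.39 in wild type and was under the floor in all 8 mutant arrays. It too passed the filter through wild type alone and had to differ.

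The comparison of hc1 with hc24 is between single strains, so that allele and strain cannot be told apart. In it 12 of the 30 genes were higher in hc1 and 5 were lower, beside 30.7% of all tested probe sets, 18.6% higher and 12.2% lower. At least 2-fold, 3 were higher (background 2.17%), namely abf-2, cnc-4 and lys-4, and 2 were lower (background 3.41%), namely fipr-2 and fipr-21, where 5.59% of all tested probe sets differed by that much in either direction. The classes leaned different ways. In the lys and ilys classes 4 genes were higher in hc1 and 0 lower, in the cnc class 3 were higher and 0 lower, and in the fip and fipr class 0 were higher and 3 lower. The saposin-like class had 4 higher (spp-1, spp-4, spp-14 and spp-15) and 2 lower (spp-10 and spp-18). The calls of fip-2, lys-8, spp-1 and spp-15 in this comparison were each lost in at least 5 of 21 alternative analyses.

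Immune regulators were described from a list of 43, of which 33 were tested. Whether each of them controls the genes described here was not tested. In hc1 14 fell and 4 rose (42.4% and 12.1%), beside 25.9% lower and 43.3% higher of all tested probe sets. In hc24 14 fell and 5 rose (42.4% and 15.2%), beside 21.7% lower and 37.7% higher. The share changed in either direction was 54.5% in hc1 and 57.6% in hc24, beside 69.2% and 59.4% of all tested probe sets. In the p38 pathway, the kinase genes pmk-1 and sek-1, its target atf-7 (a transcription factor gene) and the bright rack-1 passed in neither mutant. pmk-1 and sek-1 were picked as its core kinases after their values were seen, and nsy-1 had no single-gene probe set. In hc1 against hc24, 3 of the 12 tested p38 and epidermal signalling genes (tir-1, pmk-1 and nipi-3) were higher and 0 were lower. The shares of all tested probe sets were 18.6% higher and 12.2% lower. tir-1, the adaptor at the top of the pathway, read 9.11 ± 0.14 for wild type, 9.19 ± 0.20 for hc1 and 8.48 ± 0.26 for hc24, and fell 1.55-fold in hc24 (adjusted p = 0.00144) with an adjusted p of 0.643 in hc1. vhp-1, a phosphatase that inactivates stress kinases, fell 1.67-fold in hc1 (adjusted p = 0.00211) and 2.23-fold in hc24 (adjusted p = 0.000105). tpa-1, a protein kinase C of the epidermal response, fell 1.73-fold (adjusted p = 0.00428) and 1.71-fold (adjusted p = 0.00629). dkf-2, a protein kinase D, rose 1.31-fold (adjusted p = 0.00231) and 1.36-fold (adjusted p = 0.00129).

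Of the TGF-beta genes, sma-9, a zinc finger cofactor, fell 1.52-fold in hc1 (adjusted p = 9.1e-05) and 2.06-fold in hc24 (adjusted p = 1.04e-06), and sma-4 and sma-6 fell in both. daf-4, the type II receptor gene, rose 1.89-fold (adjusted p = 1.69e-06) and 1.32-fold (adjusted p = 0.00169). The probe sets of the ligand gene dbl-1 and of sma-2 were below the floor in every group on average. Among the other regulators, ikb-1, an I-kappa-B homolog, read 6.37 ± 0.18 in wild type, 4.68 ± 0.24 in the hc1 arrays and 3.99 ± 0.53 in those of hc24, and fell 3.23-fold in hc1 (adjusted p = 2.61e-05) and at least 5.18-fold in hc24 (adjusted p = 1.63e-06). The intestinal GATA factor gene elt-7 fell 1.97-fold (adjusted p = 7.21e-05) and 2.54-fold (adjusted p = 6.2e-06), and pqm-1 fell 2.03-fold (adjusted p = 1.13e-05) and 2.14-fold (adjusted p = 7.94e-06). mek-1, a kinase upstream of KGB-1, rose 1.85-fold in hc1 and 1.46-fold in hc24. skn-1, the worm's NRF factor, rose 1.46-fold in hc1 and 1.27-fold in hc24. kgb-1 itself fell, by 1.84-fold in hc1 (adjusted p = 2.57e-05) and by 1.53-fold in hc24 (adjusted p = 0.000637). hlh-30, elt-2 and zip-2 also fell in both mutants.

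The nlp-29 group of epidermal peptide genes is known for induction by fungal infection alongside the caenacins. Of 11 listed genes 7 were tested, and 7 fell in hc1 and 4 in hc24, with 0 rising. The share of all tested probe sets that fell was 25.9% in hc1 and 21.7% in hc24. nlp-28 read 11.28 ± 0.19 for wild type, 10.24 ± 0.06 for hc1 and 9.66 ± 0.14 for hc24. nlp-29 read 10.14 ± 0.29, 9.45 ± 0.08 and 8.57 ± 0.11, a fall of 1.61-fold in hc1 (adjusted p = 0.000284) and 2.97-fold in hc24 (adjusted p = 2.97e-07). nlp-28, nlp-29 and nlp-31 were higher in hc1 than in hc24, whereas nlp-26, nlp-27 and nlp-33 were lower in hc1 than in hc24, fell in hc1 against wild type and did not pass in hc24 against wild type. nlp-27 to nlp-31 stand next to each other on chromosome V.

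**Figure D4:**
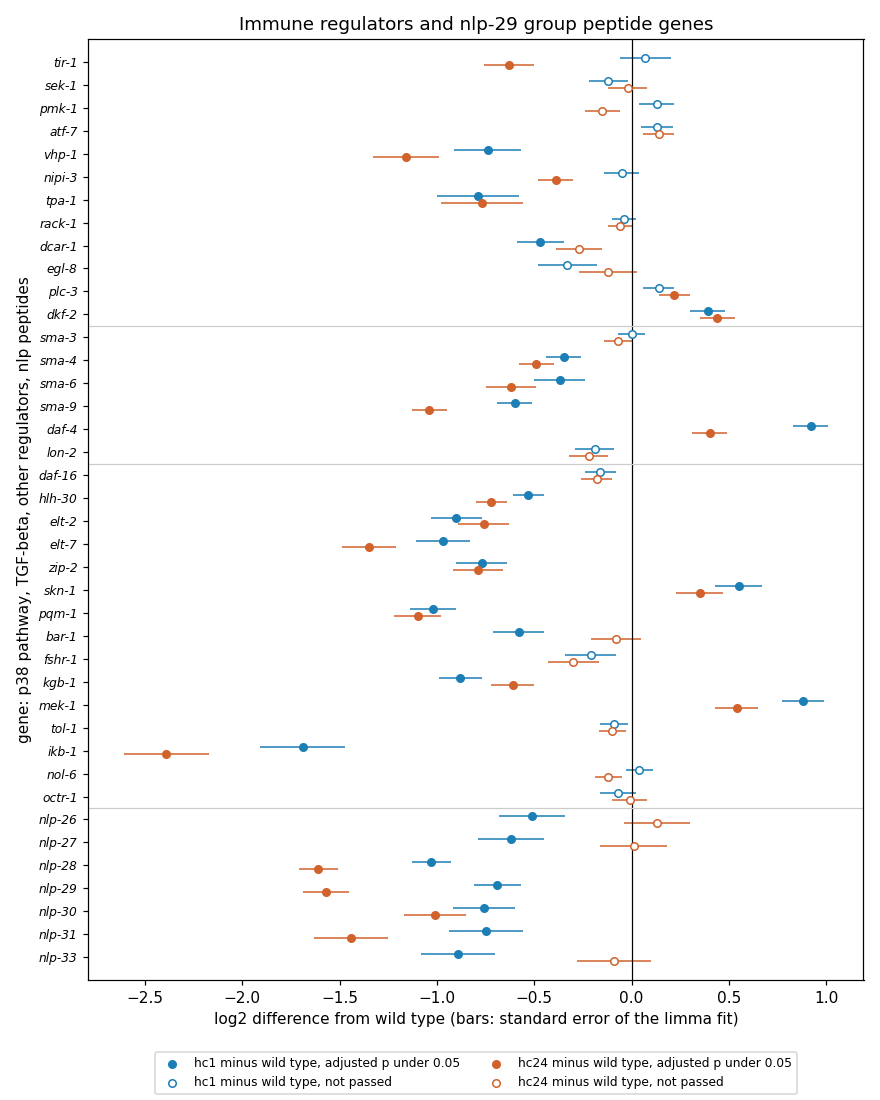
Log2 difference from wild type of 33 tested immune regulators and 7 nlp-29 group genes in hc1 (blue) and hc24 (orange), with the standard error of the limma fit. Filled points passed an adjusted p of 0.05. pmk-1, sek-1 and atf-7 lie near 0, ikb-1 lies farthest left, daf-4 and mek-1 lie right of 0, and nlp-28 to nlp-31 lie left of 0 in both mutants.

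Markers of several tissues, of the molting cycle and of the early embryo also differed between the groups. For these counts, 25.9% of all tested probe sets fell and 43.3% rose in hc1. In hc24 21.7% fell and 37.7% rose. Of 11 tested intestinal markers 7 fell in hc1 and 6 in hc24, with 0 rising, and the log2 of their summed level was 17.39 to 17.56 in wild type, 17.29 to 17.33 in the hc1 arrays and 17.12 to 17.33 in those of hc24. None of these markers was under the floor in any group, and elt-2 and elt-7 stand in both this list and that of regulators. Such sums mostly follow the brightest genes of a list, so that changes of dimmer genes may not show in them. Of 10 tested epidermal and cuticle markers 7 fell and 1 rose in hc1, and 5 fell and 1 rose in hc24; their summed level was 16.19 to 16.38 for wild type, 15.51 to 15.84 for hc1 and 16.21 to 16.33 for hc24, with bli-1 under the floor in all groups. All 9 tested molting cycle markers fell in both mutants. Their summed level was 13.16 to 13.55 in wild type, 10.09 to 10.43 in the hc1 arrays and 9.43 to 9.61 in those of hc24. Whether the groups differed in developmental stage was not tested.

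Pharyngeal markers had 3 falls and 0 rises among 6 tested in hc1, and 3 falls and 2 rises in hc24, with summed levels of 10.77 to 11.20 for wild type, 9.31 to 9.43 for hc1 and 9.08 to 9.44 for hc24. myo-2, phat-1, phat-2 and phat-3 were under the floor in every group. Early embryo markers had higher summed levels in the mutants, at 9.12 to 9.39 in wild type, 12.64 to 12.85 in the hc1 arrays and 11.89 to 12.14 in those of hc24. Of 10 on the array, 6 were under the floor in wild type on average. Among the 8 tested, pes-10, tbx-37 and sdz-31 had no wild type array at log2 4 or more and passed the filter through the mutants, so that no count of rises is given. Markers of coelomocytes, the scavenger cells of the body cavity, had summed levels of 11.67 to 11.97, 11.49 to 11.60 and 11.62 to 11.66. Of 12 germ line markers 6 rose and 1 fell in hc1, and 6 rose and 0 fell in hc24, beside the 43.3% and 37.7% of all tested probe sets that rose. Sperm and male lists had 3 tested markers and 1, and 7 of 8 male markers were under the floor in every group. The part of these marker differences in the changes of the 30 genes was not tested.

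**Figure D5:**
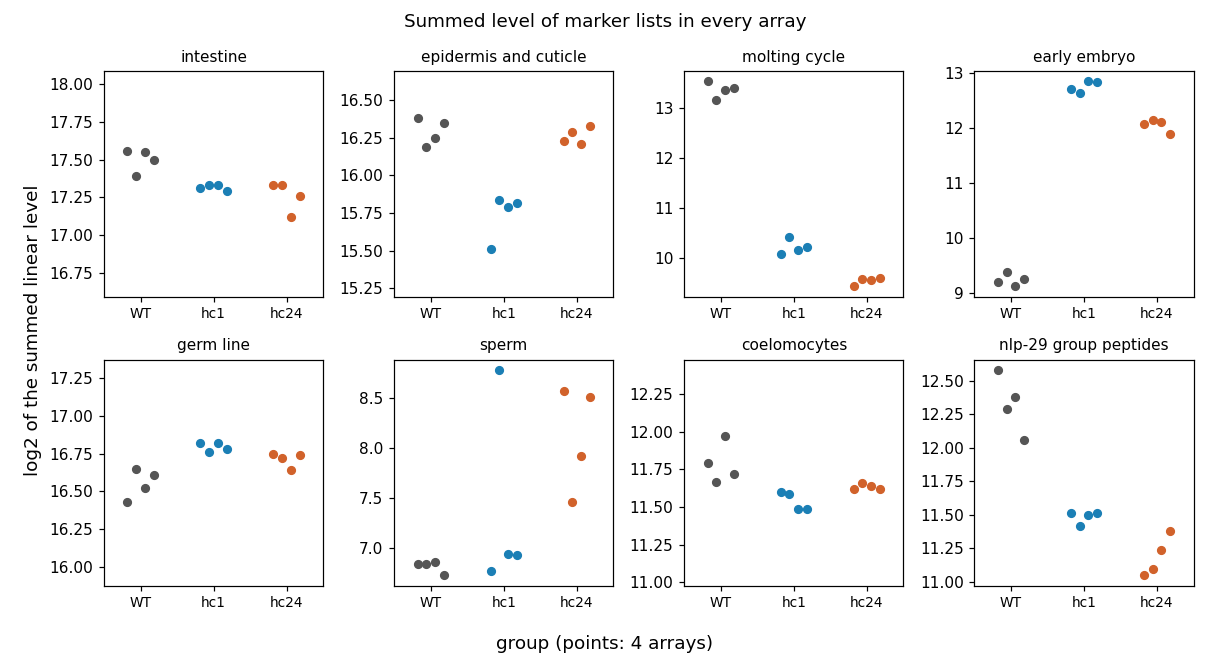
Log2 of the summed linear level of 7 marker lists and of the nlp-29 group in each array, with 4 arrays per group as points. Each panel has its own axis, which spans at least 1.5 log2 units. Intestine, molting cycle and nlp-29 group sums are lower in both mutants than in wild type, early embryo sums are higher, and the sperm sum is high in hc1 replicate 2 and in the hc24 arrays.

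The kind of probe set bears on how firmly a gene can be read. Of the 30 probe sets, 16 carried the plain suffix of a gene-specific set, 7 the suffix for sets that match several transcripts and 7 the suffix for sets with probes that may bind other sequences. The kind that matches several transcripts holds abf-2, lys-2, lys-3, lys-4, lys-7, spp-1 and spp-10. The last kind holds cnc-2, cnc-3, cnc-7, fip-2, fip-5, fipr-21 and ilys-5, whose relatives could add to their values. Outside the 30, the probe sets of nlp-27, nlp-28, nlp-29, nlp-30 and nlp-31 are also of the last kind. Among the 16 gene-specific sets, 7 fell and 0 rose in hc1, and 11 fell and 1 rose in hc24. Of all tested probe sets, 25.9% fell and 43.3% rose in hc1, and 21.7% fell and 37.7% rose in hc24. Of the 34 untested genes, 33 lay under log2 4 in every array, and their group means differed from wild type by between -0.98 (ilys-2) and 0.30 (spp-6) in hc1 and between -1.0 (ilys-2) and 0.34 (fipr-16) in hc24.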

How the data were processed

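Total RNA of whole worms, 100 ng per sample, was hybridised to 1 Affymetrix C. elegans array for each of 12 samples. The authors deposited 1 log2 value per probe set and array, made with Affymetrix Expression Console and GCRMA per the submitters' processing notes. Versions and the annotation build are not given here. GCRMA corrects background from probe sequence and normalizes across arrays. Of 22625 probe sets 77 were controls, and of the others 20810 had 1 gene symbol in the platform annotation, 843 several and 895 none in the table used. Of the 64 genes, 63 were found in the WBcel235 gene table from RefSeq and took their chromosomes and gene order from it. Its coordinates were not used.

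Groups came from the sample titles. limma 3.58.1 (R 4.3.3) was fitted to all 12 arrays with a mean per group and empirical Bayes moderation, and p-values were adjusted by Benjamini-Hochberg within each contrast over the 11833 tested probe sets. Where a group's mean was under log2 4 it was held at 4 and the fold given as "at least". The fit was tested on simulated data. Replicates are called biological in the titles, and no culture or batch is named. The number of arrays limits the precision. In each class and contrast up to 4 rising and 4 falling genes with the largest changes and the 2 brightest were to be named (3 and 3 among regulators, epidermal peptides), with others given by value or range. Summed levels add linear values over a list, so that its brightest genes weigh most and the sum does not measure the amount of a tissue. The genes, the lists and the tests were chosen with earlier results of these data known. Alternatives were 2 filters, 2 other scalings, a floor, the mean of a gene's probe sets, the compared groups alone, array weights, replicate number as a block and leaving out each array. No sequence of these genes was used here.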

Additional observations from a re-analysis of the deposited data

Results flagged for a closer look

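In 10 cases 1 array of a group stood apart from the other 3 by more than Dixon's critical value for 4 values. A total of 89 groups of 4 arrays were examined, and chance gives about 1 such case in 20 groups.

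In wild type, cnc-3 was high in replicate 3 (8.19, others 7.57 to 7.66), fipr-2 was low in replicate 4 (5.47, others 5.95 to 5.99) and ilys-5 was low in replicate 4 (15.89, others 16.05 to 16.07). In hc1, cnc-2 was high in replicate 1 (4.65, others 4.39 to 4.42), fip-2 was low in replicate 2 (8.91, others 9.44 to 9.51), and replicate 6 was high for cnc-7 (5.49, others 5.17 to 5.19) and spp-14 (11.73, others 11.28 to 11.34). In hc24, replicate 1 was high for ilys-5 (15.69, others 15.62) and low for spp-10 (13.05, others 13.13), and lys-3 was low in replicate 2 (3.37, others 4.11 to 4.18). The gap of lys-3 reaches below the floor of log2 4.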

How the results depend on the processing

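The number of genes called among the 30 was 18 in hc1 against wild type, 24 in hc24 against wild type and 17 in hc1 against hc24. The shares of all tested probe sets called were 69.2%, 59.4% and 30.7% in that order. Without the filter on low values 37 of 64 were called in hc1 against wild type, 15 higher and 22 lower. In that setting, which adds the 34 genes near background, 55.5% of all probe sets were called. No other alternative moved a count by over 1.5 times. Median centring gave 20, 16 and 18 calls, beside 82.3%, 80.8% and 29.3% of all tested probe sets. Leaving out 1 array gave 18 to 20, 21 to 23 and 14 to 17 calls. The shares of all tested probe sets were then 64.5% to 69.7%, 53.9% to 59.8% and 24.4% to 32.1%. The replicate numbers came from the titles, which do not say whether same-numbered arrays share a preparation. Deviations of same-numbered arrays from their group means correlated at -0.075 to 0.083, and those of other pairs between groups at -0.244 to 0.231. No shared preparation was seen in these values, which do not settle the point. With replicate number as a replicate block there were 17, 23 and 15 calls, beside 62.1%, 55% and 25.3% of all tested probe sets. Among single genes, median centring reversed ilys-5 in hc1 (0.23, adjusted p = 0.00498) and thn-3 in hc1 (0.25) and hc24 (0.24), removed 4 calls in hc1 and 10 in hc24, and added 4 and 1. The calls of fip-5 and spp-8 in hc24 were each lost in 13 alternatives, that of lys-8 between the alleles in 12, that of fip-2 between the alleles in 8 and that of lys-1 in hc24 in 7. The cause was not tested. Signal near background limits what can be read of the 34 untested genes.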
